A study of Mus musculus with 15 samples.

Results

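Gene expression after knockout of Taf6l was compared with that of wild-type mouse embryonic stem cells in 6 of the 15 RNA-seq libraries of the study, 3 titled Taf6l-KO and 3 titled as the J1 wild type of the Taf knockouts. J1 is a mouse embryonic stem cell line, and both groups were grown in medium with serum and leukaemia inhibitory factor. The knockout cells carry a Taf6l-KO genotype and no other stated allele, and the labels do not give the edited position or how many clones were used. The 3 Taf5l-KO libraries of the same experiment entered the shared estimate of spread, so that 9 libraries were fitted together, and they serve below for a direct comparison. Nothing in the labels says that replicates came from separate cultures, so the p-values reflect only how these libraries differ among themselves, possibly for technical reasons.

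TAF6L is a histone-fold protein of SAGA, a transcriptional coactivator whose modules acetylate histone H3 and remove ubiquitin from histone H2B. It takes the place in SAGA that its paralogue TAF6 takes in TFIID, the complex that places RNA polymerase II at promoters, while subunits such as TAF9, TAF10 and TAF12 serve both complexes. In embryonic stem cells, SAGA subunits are known as regulators of self-renewal and of MYC.

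Total counts were 17446821 to 21767884 in the knockout libraries and 14935631 to 20337365 in the wild-type libraries, and the biological coefficient of variation was 4.23%. The first principal component (35.7% of the variance) separated the wild type from both knockouts, and the second (16.4%) separated Taf6l-KO from Taf5l-KO. Embryonic stem cell markers were high per transcript length in both groups, with Pou5f1 at 6542 FPKM (fragments scaled to transcript length and library depth) in the knockout and 7476 in the wild type and Nanog at 653 and 713. Of 12 feeder fibroblast markers 5 were tested, and Dcn, Lum and Mgp had 0 counts in all 6 libraries. The summed level of the feeder markers was 12 to 12.6 normalised read counts on a per-library scale (CPM) in the knockout and 15.5 to 17.5 in the wild type. Throughout, fewer cells of a type and less RNA per cell cannot be told apart in these bulk samples.

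The targeted gene was examined first. Taf6l (ENSMUSG00000003680, chromosome 19) stood at 6.53, 7.17 and 6.06 CPM in the knockout libraries and at 26.8, 26.3 and 25.2 in the wild type. The groups did not overlap, and RNA of the gene remained measurable in each knockout library (log2 fold change -1.99 ± 0.080 SE, adjusted p = 5.00e-10 in edgeR's quasi-likelihood test with Benjamini-Hochberg adjustment, as for all adjusted p-values here). Taf5l, its partner subunit in SAGA, stood at 87.7, 89.4 and 92.0 CPM against 88.1, 85.3 and 84.5. Those ranges overlapped, and the difference of 0.06 did not pass the threshold of 0.05 (adjusted p = 0.179), although with library totals as the scale it did (0.13, adjusted p = 0.0179).

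The comparison of these knockout and wild-type cells held many small changes. How far they follow from loss of TAF6L was not tested. Of 15743 genes tested, 5861 (37.2%) passed, 3003 (19.1%) higher and 2858 (18.2%) lower in the knockout. The median size of a called change was 0.32 on the log2 scale, and 2940 calls (50.2%) were smaller than 1.25-fold. A change of at least 2-fold was called in 497 genes (3.16% of those tested), of which 347 were higher and 150 lower.

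How the libraries were scaled decided how these small changes fell between higher and lower. The main scaling, TMM, equalises the typical gene, and gave 51.2% of calls as higher. Scaling by library totals gave 4080 higher and 1837 lower genes (69.0% higher). It added 1077 higher calls and removed 1022 lower calls, whose median log2 fold change had been -0.16, and no call changed direction. The shift between both scales was 0.069 on the log2 scale over all tested genes. RLE scaling lay on the other side, with 2861 higher and 3024 lower genes.

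Several abundant RNAs took different shares of the libraries in the groups, and such shares enter a scale set by totals. Mitochondrial ribosomal RNAs held 4.72% ± 0.256 (SD, n = 3) of the counts in the knockout and 5.46% ± 0.247 in the wild type. Replication-dependent histone genes held 1.15% ± 0.0480 and 1.55% ± 0.0446, and the 2 clone-named genes AC157822.1 and AC099934.1 held 2.92% ± 0.244 and 3.80% ± 0.124. Each of these 3 shares was lower in the knockout without overlap, and the exact two-sided permutation test gave p = 0.1 for each, the smallest value that 3 against 3 libraries allow. The predicted genes Gm12895 and Gm12896 held a larger share in the knockout, 1.82% ± 0.355 against 1.21% ± 0.0397, also without overlap (exact p = 0.1). The clone-named and the predicted gene pairs were not among the planned shares. Shares of protein-coding genes (exact p = 0.3), the 20 most counted genes (exact p = 0.2) and genes without annotation match (exact p = 0.5) overlapped between groups. Of the small nucleolar RNAs 54 of 158 tested members were higher and 2 lower, against 19.1% higher and 18.2% lower over all tested genes. How much each of these shares contributed to the gap between the scalings was not tested.

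**Figure D1:**
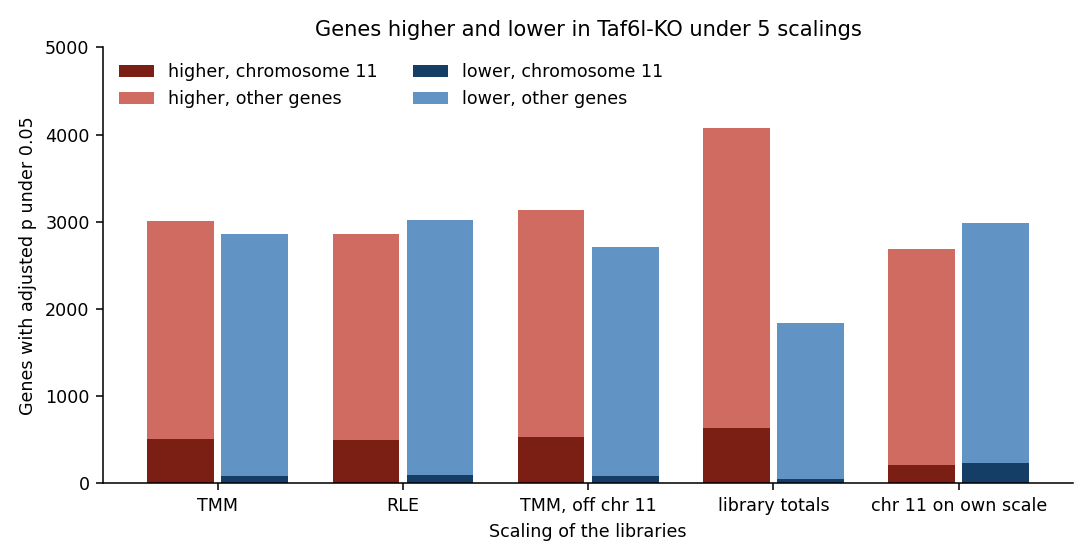
Genes called higher (red) and lower (blue) in Taf6l-KO at an adjusted p under 0.05, as bars of counts under 5 scalings of the same libraries, with chromosome 11 genes as the dark part. Library totals gave 4080 higher and 1837 lower genes against 3003 and 2858 with TMM.

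Chromosome 11 stood apart from the other chromosomes. Of its 1300 tested genes, 508 (39.1%) were higher and 84 (6.46%) lower in the knockout, against 2389 (17.6%) higher and 2704 lower of 13548 genes on other chromosomes. The median chromosome 11 gene lay at 0.16 on the log2 scale, 1.12-fold, and the median gene elsewhere at 0.00. The difference between those medians was 0.159 with TMM, with library totals, with RLE and with TMM computed from genes off chromosome 11. Each of these scalings moves all genes of a library by the same factor. The difference could therefore hardly change, and its constancy is no test. Chromosome 11 held 8.26% of the tested genes, 16.9% of the higher calls and 2.94% of the lower calls.

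The shift was broad and small rather than carried by a few genes. Of the chromosome 11 genes 74.6% lay above 0, against 50.6% elsewhere, and their quartiles were 0.00 and 0.33, against -0.16 and 0.19. When its genes were taken in order along the chromosome in 12 groups of 108 or 109, the group medians ran from 0.11 to 0.21, so each group lay above 0. Each knockout library showed it, with medians of 0.14, 0.15 and 0.15 against the wild-type mean over the 834 chromosome 11 genes averaging 100 counts or more. Chromosome 11 genes held 9.10%, 9.31% and 9.37% of the counts in the knockout libraries and 8.21%, 8.24% and 8.24% in the wild type, with no overlap (exact permutation p = 0.1, the smallest possible). A fold change of at least 2 was called for 45 of the rises and 5 of the falls on this chromosome.

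Scaling chromosome 11 on its own genes, an alternative chosen after seeing the data, left 206 higher and 232 lower genes there. Of all 3003 higher calls 315 were lost under it, and 20 of the lower calls, and no call changed direction.

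**Figure D2:**
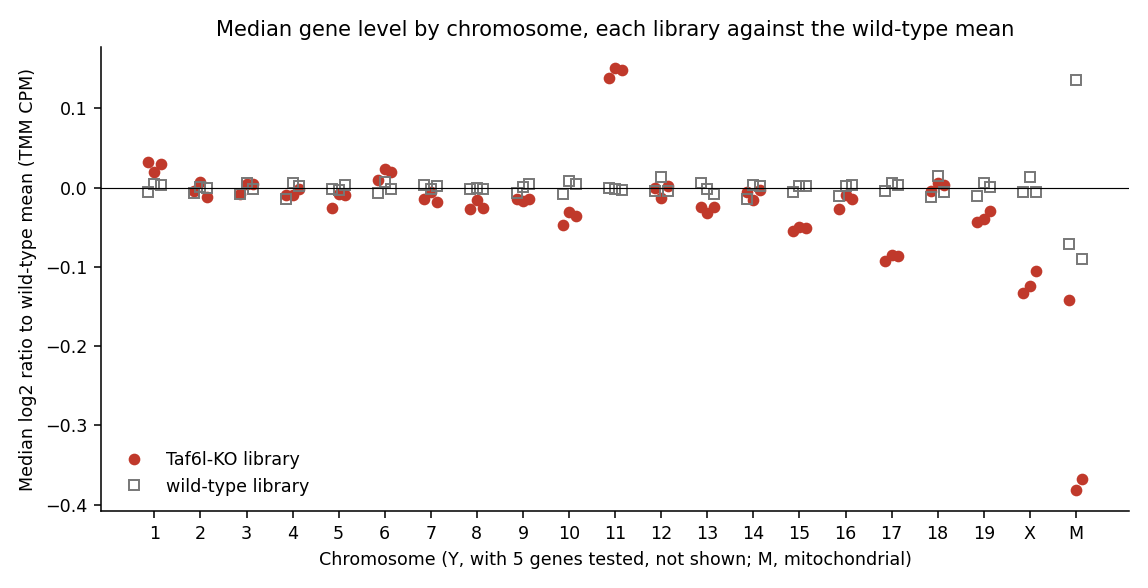
Median log2 ratio of the tested genes of each chromosome (x axis) in each library against the wild-type mean, for 3 Taf6l-KO libraries (filled circles) and 3 wild-type libraries (open squares). The 3 knockout libraries lie at 0.14 to 0.15 on chromosome 11. They lie below the wild type on several others, farthest on 17 and X among the nuclear chromosomes shown, and less on 10, 15 and 19, for example. The 21 mitochondrial genes vary widely between libraries of either group.

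**Figure D3:**
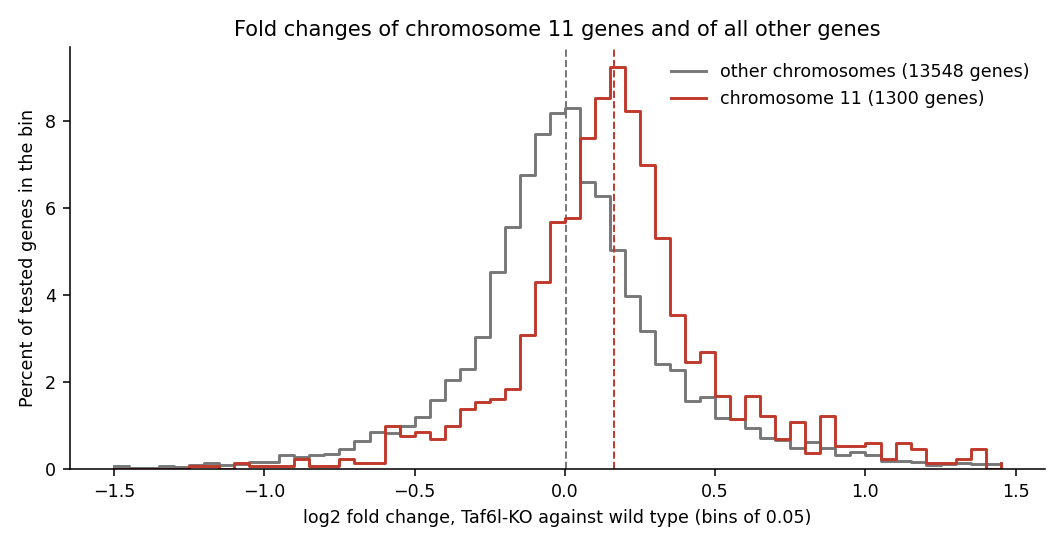
Distribution of log2 fold changes (x axis, bins of 0.05) as percent of tested genes, for 1300 chromosome 11 genes (red) and 13548 genes of other chromosomes (grey), with dashed lines at the medians of 0.16 and 0.00. The chromosome 11 curve is displaced to the right over its whole body and not by a separate tail.

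Chromosome X moved the opposite way, with 73 of 564 tested genes higher and 193 lower and a median of -0.10. Rps4x, an X-linked ribosomal protein gene, stood at 1036 to 1079 CPM in the knockout and 1516 to 1529 in the wild type (-0.52). All 5 tested Y-linked genes were higher. Ddx3y, an RNA helicase gene of the Y chromosome, stood at 88.1, 92.4 and 94.2 CPM against 45.6, 53.7 and 48.6 (0.89 ± 0.057). Xist, the RNA that coats an inactive X chromosome, was low in both groups (6.44, 4.69 and 5.65 CPM against 8.09, 7.91 and 8.53). Between Taf6l-KO and Taf5l-KO, the median difference was 0.01 for X genes and 0.11 for Y genes.

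Among genes averaging 100 counts or more, the highest rises were in genes of guidance receptors, Nodal inhibitors and epithelial structure. Nrp2, a co-receptor for class 3 semaphorins and vascular endothelial growth factor, led them at 38.0, 36.5 and 34.7 CPM in the knockout against 4.64, 3.58 and 4.06 in the wild type (log2 fold change 3.16 ± 0.080, adjusted p = 1.10e-11). Lefty2 and Lefty1 encode secreted proteins that block Nodal from its receptors. Lefty2 stood at 21.9, 25.9 and 23.2 CPM against 4.80, 3.68 and 3.11 (2.60 ± 0.147), and Lefty1 at 9.91, 10.8 and 11.2 against 2.43, 1.79 and 1.90 (2.38 ± 0.128). That knockout and wild-type libraries did not overlap for these genes follows from how the genes were chosen.

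Lad1, which encodes ladinin of epithelial basement membranes, rose from 3.45 ± 0.601 to 15.2 ± 0.844 CPM (SD, n = 3; 2.12 ± 0.105). Anxa2, a calcium-dependent membrane-binding annexin, stood at 18.1, 19.6 and 20.3 CPM against 4.31, 4.87 and 4.67 (2.06 ± 0.089). Calcoco2, an autophagy receptor on chromosome 11, stood at 64.8, 62.9 and 67.1 against 16.1, 16.5 and 17.3 (1.97 ± 0.057), and at 1.81 when chromosome 11 was scaled on its own genes. Its rise is far larger than the general rise of its chromosome.

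The other leading rises were Plac8 (1.83), the epithelial splicing regulator Esrp1 (1.78), the serum response transcription factor Egr1 (1.72), Klhl31 (1.71), the O-glycosylation enzyme Galnt6 (1.65), the adhesion receptor Gpr56 (1.63), the tight junction claudin Cldn6 (1.59), Cdkn2a (1.57) and Prr15 (1.55). Cdkn2a encodes a CDK4 inhibitor and the p53-stabilising ARF protein. It stood at 9.73, 10.4 and 11.2 CPM against 2.64, 3.63 and 4.40. Libraries of a group differed widely for Prr15, at 42.8, 50.0 and 68.4 CPM against 26.3, 16.6 and 11.1, and for Klhl31, at 7.57, 8.83 and 11.3 against 4.10, 2.93 and 1.15. Genes were ranked only where knockout and wild-type libraries did not overlap. Among all tested genes, 7708 (49.0%) had groups that did not overlap.

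**Figure D4:**
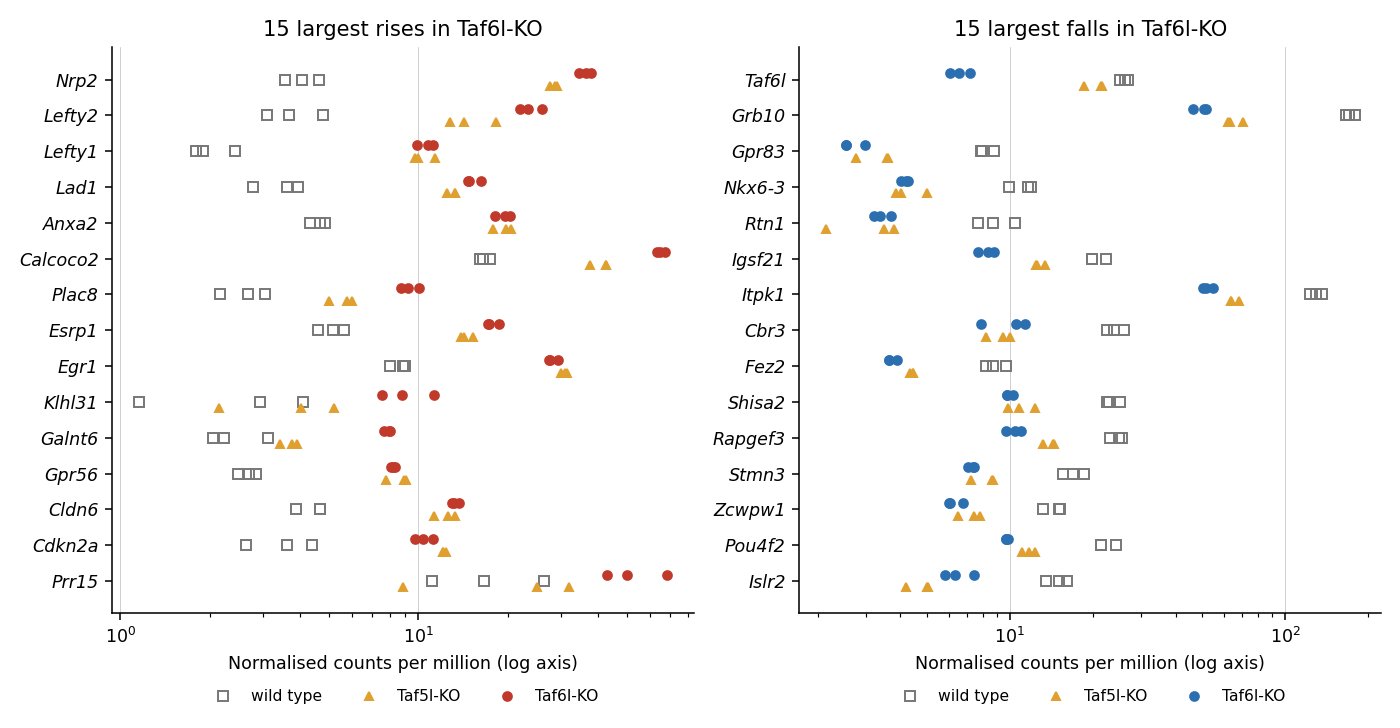
Normalised read counts (CPM) on a log axis in each of 3 libraries of Taf6l-KO (circles), wild type (squares) and Taf5l-KO (triangles), for the 15 called genes with the largest rises (left) and the 15 with the largest falls (right) in Taf6l-KO among genes averaging 100 counts or more whose knockout and wild-type libraries did not overlap, so that the gap between circles and squares follows from the choice. Klhl31 and Prr15 are examples of wide spread within a group.

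After Taf6l itself, the deepest fall among genes averaging 100 counts or more was in Grb10, the imprinted adaptor that restrains insulin receptor signalling. It stood at 51.8, 50.9 and 46.2 CPM in the knockout and at 166, 170 and 179 in the wild type (-1.79 ± 0.052, adjusted p = 1.54e-11). Grb10 lies on chromosome 11, so it fell against the direction of its chromosome, and at -1.95 on the chromosome's own scale. The orphan receptor gene Gpr83 stood at 2.97, 2.54 and 2.53 CPM against 8.73, 7.86 and 7.92 (-1.60 ± 0.127), and the homeobox gene Nkx6-3 at 4.01, 4.19 and 4.27 against 11.6, 11.9 and 9.95 (-1.43 ± 0.113).

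Several of the other falls were in genes that neurons use. Rtn1, a reticulon of the endoplasmic reticulum (-1.39), Igsf21, a synaptic adhesion protein (-1.32), the stathmin Stmn3 (-1.24), the POU-domain factor Pou4f2 (-1.20) and Islr2, an axon-growth membrane protein (-1.19), fell from wild-type means of 8.92 to 22.4 CPM. Itpk1, an inositol phosphate kinase gene expressed at higher level, stood at 50.4, 51.5 and 54.9 CPM against 136, 123 and 129 (-1.31 ± 0.046). Cbr3 (-1.29), Fez2 (-1.25), Shisa2 (-1.25), the cAMP-regulated exchange factor Rapgef3 (-1.24) and the histone reader Zcwpw1 (-1.21) completed the largest falls. Of 23 listed neuronal vesicle and axon genes 20 were tested, and 4 rose and 8 fell (median -0.12). Robo1, a Slit receptor, was among the rises, at 67.9, 56.8 and 59.2 CPM against 42.1, 44.2 and 44.2 (0.50), and the tubulin Tubb3 among the falls, at 55.8, 56.3 and 53.9 against 80.0, 79.4 and 75.5 (-0.50).

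Promoter windows are shown of the targeted gene, the leading rise and the leading fall, and of Anxa2 as a rise with a TATA motif. They come from RefSeq (GRCm38.p6), run from 250 bases before to 50 after the annotated start, 5′ to 3′ on the gene's strand, and 23 of the 30 genes with the largest rises and falls had one. Capitals mark CACGTG, the E-box that MYC with MAX is known to bind, and TATAAA, the TATA motif, each searched on both strands.
Taf6l (chr19:8786267-8786566, minus strand): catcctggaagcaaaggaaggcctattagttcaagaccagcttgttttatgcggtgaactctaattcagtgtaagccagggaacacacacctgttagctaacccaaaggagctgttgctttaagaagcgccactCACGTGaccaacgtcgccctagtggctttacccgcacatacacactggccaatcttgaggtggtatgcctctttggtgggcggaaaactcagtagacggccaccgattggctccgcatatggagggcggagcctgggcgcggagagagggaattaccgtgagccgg
Nrp2 (chr1:62703067-62703366, plus strand): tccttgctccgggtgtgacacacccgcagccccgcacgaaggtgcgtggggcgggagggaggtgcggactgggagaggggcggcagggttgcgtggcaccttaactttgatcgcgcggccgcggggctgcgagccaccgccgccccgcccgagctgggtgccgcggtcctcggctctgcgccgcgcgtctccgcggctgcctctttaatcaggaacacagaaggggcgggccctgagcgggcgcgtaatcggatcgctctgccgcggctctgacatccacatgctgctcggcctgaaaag
Anxa2 (chr9:69453433-69453732, plus strand): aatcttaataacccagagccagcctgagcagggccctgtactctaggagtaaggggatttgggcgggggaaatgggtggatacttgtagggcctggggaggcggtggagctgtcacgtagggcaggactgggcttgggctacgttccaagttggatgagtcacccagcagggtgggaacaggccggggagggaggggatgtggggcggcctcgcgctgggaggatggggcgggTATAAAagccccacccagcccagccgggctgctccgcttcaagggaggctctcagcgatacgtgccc
Grb10, first of 2 windows (chr11:12037371-12037670, minus strand): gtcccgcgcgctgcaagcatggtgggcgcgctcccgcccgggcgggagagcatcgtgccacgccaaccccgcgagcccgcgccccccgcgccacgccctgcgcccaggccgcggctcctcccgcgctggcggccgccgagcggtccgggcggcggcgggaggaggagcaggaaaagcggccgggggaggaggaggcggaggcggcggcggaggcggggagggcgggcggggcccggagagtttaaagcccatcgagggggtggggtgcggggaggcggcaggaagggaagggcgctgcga

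The Taf6l window holds 1 CACGTG, the Anxa2 window 1 TATAAA, for which it was chosen, and the Nrp2 window and this Grb10 window neither. Among 22862 genes with a single promoter window, 7.12% hold CACGTG and 14.8% TATAAA, and among the 7830 of them tested here 10.5% and 6.92%. CACGTG was in 13.2% of 1540 genes that were lower in the knockout, in 9.81% of 1560 that were higher and in 9.79% of 4730 that were not called. TATAAA was in 12.4% of 145 genes called higher at least 2-fold and in 15.3% of 72 called lower at least 2-fold, against 6.83% of the uncalled. These shares are descriptions of letters in a window, with no test of binding or of the difference.

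Rises and falls counted in the lists below stand beside 19.1% higher and 18.2% lower over all tested genes. Among the complexes that TAF6L belongs to or resembles, changes outside Taf6l were modest. Of 11 genes of the structural core of SAGA 1 rose and 5 fell (median -0.14), including Taf6l. The shared histone-fold subunits fell, Taf12 at 15.8, 17.7 and 17.4 CPM against 23.5, 23.2 and 22.9 (-0.46 ± 0.063), Taf9 by 0.38 and Taf10 by 0.20 on the log2 scale. Trrap, the large scaffold that SAGA shares with TIP60, rose, at 256, 219 and 219 CPM against 186, 190 and 194 (0.29 ± 0.059). The core thus held a single rise, in its largest subunit.

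In the acetyltransferase and deubiquitinase modules of SAGA 6 of 14 members rose and 3 fell (median 0.08). Usp22, the deubiquitinase itself, rose by 0.32, but lies on chromosome 11 and rose by 0.16 on that chromosome's own scale. Kat2a, the acetyltransferase, stood at 144, 152 and 142 CPM against 147, 145 and 149 (-0.01, adjusted p = 0.821). It too lies on chromosome 11, and on the chromosome's own scale it passed as lower (-0.17, adjusted p = 0.00126), while library totals gave 0.06. Without Taf6l-KO replicate 3 its value was 0.01. Atxn7l1, of the deubiquitinase module family, rose by 0.38, and Sf3b3, shared with the spliceosome, fell from 441 to 460 CPM down to 365 to 367 (-0.30).

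TFIID had 2 rises and 4 falls among 13 members (median -0.06). Taf1, its largest subunit, is X-linked and stood at 91.8 to 100.7 CPM against 130, 133 and 135 (-0.45), while Taf5 and Taf7 rose by 0.22 and 0.21. Taf6, the paralogue of the targeted gene, was 37.1, 40.0 and 38.9 CPM against 40.1, 42.2 and 42.4 (-0.10, adjusted p = 0.105). Of 8 genes of ATAC, the other complex with GCN5-type acetyltransferases, 2 rose and 2 fell, and Wdr5, which also serves H3K4 methyltransferases, had the deepest fall (-0.50). TIP60-EP400 had 5 rises and 2 falls among 17 members, led by the X-linked Morf4l2 at 499, 510 and 506 CPM against 332, 329 and 330 (0.61).

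Myc fell while Mycn and Mycl1 rose. Myc stood at 39.3, 41.5 and 36.1 CPM against 70.2, 65.6 and 71.9 (-0.83 ± 0.051, adjusted p = 2.50e-08). Mycn, the paralogue with the higher count level, stood at 146, 150 and 149 against 119, 115 and 116 (0.35 ± 0.031), and Mycl1 rose by 0.53. In the list of 12 MYC, MAX and MXD genes 4 rose and 1, Myc, fell (median 0.04). Mlx, a partner of the MondoA branch on chromosome 11, also rose (0.35, and 0.19 on the chromosome's own scale). Mga rose by 0.14, which did not pass without Taf6l-KO replicate 1 (0.09, adjusted p = 0.152) or WT-Taf replicate 1 (0.09, adjusted p = 0.162).

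Epithelial genes were higher. Of 21 genes for tight junctions and epithelial adhesion 12 rose and 2 fell (median 0.41), and of 15 keratin and desmosome genes 9 rose and 1 fell (median 0.38), against a background of 19.1% higher and 18.2% lower. Cldn6, a claudin of early epithelia, stood at 13.2, 13.7 and 12.998 CPM against 3.88, 4.67 and 4.67. E-cadherin, Cdh1, the main adhesion protein of these cells, stood at 322, 315 and 311 against 232, 233 and 237 (0.43 ± 0.030), and F11r, a junctional adhesion molecule, rose by 0.41. Perp, a desmosomal protein and p53 target, stood at 26.2, 21.9 and 23.9 against 12.1, 11.4 and 10.6 (1.07 ± 0.077). Desmoplakin, Dsp, rose by 0.78, and the transcription factor of epithelial genes Grhl2 by 0.54.

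The rise was not shared by every junction gene. Epcam, an epithelial adhesion protein that is also abundant in embryonic stem cells, fell from 29.8 to 31.1 CPM down to 21.5 to 22.9 (-0.47), the membrane protease inhibitor Spint1 fell (-0.39), and the plakophilin Pkp2 fell (-0.70). Chromosome 11 carries the type I keratin cluster, and all 4 tested keratin and desmosome members on it rose. On that chromosome's own scale 2 of them did not pass, Krt17 (0.38, then 0.22 with an adjusted p of 0.145) and Jup, or plakoglobin (0.14, then -0.02 with an adjusted p of 0.600), which left 7 rises in the list. Krt17 also missed the threshold without WT-Taf replicate 2 (0.27, adjusted p = 0.100) and in DESeq2 (adjusted p = 0.122). Off chromosomes 11, X and Y the keratin and desmosome list had 5 rises and 1 fall among 11 (median 0.30), and the junction list 11 and 2 among 20 (median 0.38). Krt42 on chromosome 11 rose by 0.58, or 0.43 on that chromosome's own scale, and Krt8 and Krt18, the simple epithelial pair on chromosome 15, by 0.43 and 0.51. Krt19 rose by 1.507 at a low level of 1.27 to 1.44 CPM.

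Annexins and S100 proteins, which bind calcium and membranes, had 6 rises among 14 (median 0.17). S100a10, the partner of annexin A2, stood at 57.9, 55.5 and 55.0 CPM against 40.8, 40.0 and 40.5 (0.47 ± 0.050). Anxa6 on chromosome 11 rose from 84.4 to 91.5 CPM up to 136 to 138 (0.64, and 0.48 on the chromosome's own scale). Anxa3 (0.84) and S100a6 (0.81) rose at levels below 7 CPM.

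Matrix and basement membrane genes were mixed. Of 17 genes of basement membrane and primitive endoderm 6 rose and 3 fell (median 0.06). Laminin and collagen IV chains were among the rises, with Lamb1 at 85.0, 79.5 and 78.0 CPM against 44.2, 45.9 and 46.3 (0.83 ± 0.045), Lama1 at 0.66, Col4a1 at 0.73 and Col4a2 at 0.57. The 3 falls were Gata6, Cubn and Sox7, primitive endoderm genes at low level, of which Gata6, the lineage's founding transcription factor, stood at 0.135, 0.221 and 0.138 CPM against 0.809, 0.696 and 0.812. Gata4 went the other way, at 4.14, 2.92 and 4.13 CPM against 2.43, 1.84 and 1.76 (0.90). The laminins therefore rose without a joint rise of the endoderm transcription factors.

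Receptors for that matrix also split. Of 16 integrin genes 5 rose and 4 fell (median 0.10), while the 12 off chromosomes 11, X and Y had 3 rises, 4 falls and a median of -0.09. Itgav, the vitronectin receptor chain, rose (0.47), as did Itgb4, the hemidesmosome chain on chromosome 11 (0.68, and 0.53 on its own scale), and Itgb3, on the same chromosome (0.78). Itga5, the fibronectin receptor chain, fell from 95.4 to 104 CPM down to 67.6 to 73.8 (-0.47). Mesenchymal and matrix genes counted 4 rises and 4 falls among 18, near the shares over all tested genes. Among them Sparc on chromosome 11 was higher (0.61), and Tgfbi (-0.65) and the E-cadherin repressor Zeb1 (-0.45) were lower.

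Among 20 genes of the actin cytoskeleton and of YAP and SRF targets 9 rose and 3 fell (median 0.15). Ctgf, a classic YAP target, stood at 11.5, 12.5 and 11.8 CPM against 5.77, 6.41 and 7.65 (0.86 ± 0.098), and Amotl1 (0.64) and Cnn2 (0.55) rose. The X-linked filamin Flna, at far higher level, fell from 692 to 717 CPM down to 461 to 489 (-0.59).

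The semaphorin system around Nrp2 did not move as a block. Of 24 neuropilin, plexin and semaphorin genes 6 rose and 7 fell (median -0.03). Nrp1, the paralogous co-receptor, was low in both groups, at 0.811, 0.607 and 0.643 CPM against 0.755, 0.746 and 1.15 (-0.32, adjusted p = 0.444). Sema3e, a secreted class 3 ligand, rose (0.88), and of the transmembrane semaphorins Sema4d rose (0.44) while Sema4b (-0.51) and Sema5b (-1.005) fell.

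In the NODAL pathway the inhibitors moved far more than its receptors and SMADs. Of 18 tested members 8 rose and 4 fell (median 0.03), or 8 and 1 with totals as the scale. The type II receptor Acvr2a (0.34) and Foxh1, the nuclear partner of SMAD2 (0.37), rose, and Tgif1, a repressor of SMAD targets, fell from 165 to 168 CPM down to 109 to 112 (-0.60 ± 0.032). Nodal, the ligand, stood at 18.2, 19.97 and 19.107 CPM against 20.4, 21.3 and 23.1 (-0.17, adjusted p = 0.0355). That small fall did not pass when library totals set the scale (-0.11, adjusted p = 0.223), nor without Taf6l-KO replicate 1 (-0.14, 0.134), Taf6l-KO replicate 3 (-0.18, 0.0773), WT-Taf replicate 2 (-0.18, 0.0664) or WT-Taf replicate 3 (-0.13, 0.147).

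In the BMP pathway the ligand Bmp4 and part of its targets fell. Bmp4, which supports self-renewal through ID proteins, stood at 30.5, 31.1 and 30.8 CPM against 45.0, 47.6 and 44.0 (-0.57 ± 0.046). Its targets Id1 (-0.31) and Id3 (-0.38) fell, while Id2, at about 6 CPM in the knockout, rose (0.56) and the transducer Smad5 rose (0.27). Over the list of 12 tested genes 3 rose and 3 fell (median 0.02), so the list as such did not lean.

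The FGF-ERK pathway, which moves embryonic stem cells out of self-renewal, leaned lower with TMM, with 4 rises and 8 falls among 19 (median -0.11). With library totals 6 rose and 7 fell (median -0.045), so this lean depended largely on the scale. Its feedback inhibitors and ETS targets led the falls. Spry4 stood at 196, 182 and 185 CPM against 304, 296 and 299 (-0.68 ± 0.037), Dusp6, an ERK phosphatase, at 60.1, 64.5 and 69.9 against 108, 100.8 and 106 (-0.69 ± 0.053), and Etv4 at 98.8, 98.7 and 99.8 against 141, 148 and 149 (-0.56). Etv4, which was counted in the epiblast list below, is on chromosome 11 and so fell against that chromosome's direction. The exchange factor Sos1 (-0.70), Etv1 (-0.47) and the ligand Fgf4 (-0.29) also fell. Egr1 and the phosphatase Dusp5, both known as ERK-induced, rose instead (1.72 and 0.87).

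In the WNT list 4 of 20 rose and 3 fell (median 0.00), near the shares over all tested genes, and 2 of the rises lie on chromosome 11. Tcf7 there rose by 0.26, a call lost when the chromosome was scaled on its own genes (0.10, adjusted p = 0.0799). The receptor Fzd5 fell from 406 to 413 CPM down to 321 to 342 (-0.30).

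Core pluripotency factors leaned lower, with 14 of 21 lower and 2 higher (median -0.19). Their summed level was 7664 to 7778 CPM in the knockout and 9135 to 9241 in the wild type. The deepest falls among them were in Nr0b1, an X-linked nuclear receptor (-0.74), Klf4 at 188, 184 and 184 CPM against 274, 278 and 276 (-0.58), Klf5 (-0.54), Tbx3 (-0.47) and Tdh, the threonine-catabolising enzyme of mouse embryonic stem cells (-0.44). Pou5f1 fell less, from 910 to 922 CPM down to 770 to 805 (-0.22), and Sox2 was 0.08 higher (adjusted p = 0.0607), which passed with library totals (0.14, adjusted p = 0.00451). The 2 rises were in Fbxo15 (0.51) and in Dppa3, an oocyte and naive-state factor at low level, with 1.49, 1.27 and 1.06 CPM against 0.323, 0.298 and 0.338 (1.98 ± 0.308).

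The formative and primed epiblast list had 5 rises and 6 falls among 15 (median 0.01). Otx2, the transcription factor that marks exit from the naive state, stood at 13.7, 14.8 and 14.0 CPM against 7.55, 7.01 and 7.31 (0.95 ± 0.074), and Dnmt3l (0.58) and Dnmt3a (0.33) rose with it. X-linked Sox3 fell, from 5.32 to 6.77 CPM down to 1.89 to 2.16. Markers of the germ layers stayed low in level. Summed neuroectoderm markers were 17.7 to 18.9 CPM in the knockout and 12.5 to 14.2 in the wild type, with Nes (0.84) and Pax6 (0.88) higher, Lhx2 lower (-1.496), and Fabp7 at 0 counts in all 6 libraries. Summed mesoderm markers were 12.4 to 12.9 CPM against 11.1 to 12.4. The part of other cell types in these changes was not tested.

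G1 regulators of the RB pathway changed in both directions. All 3 D-type cyclins fell, with Ccnd2 at 21.2, 19.1 and 19.4 CPM against 34.6, 33.4 and 34.4 (-0.77 ± 0.053), Ccnd3 at 268, 267 and 263 against 389 to 398 (-0.56 ± 0.029), and Ccnd1 by -0.23. Their kinase Cdk4 (-0.27) and the transcription factor E2f2 (-0.79) fell as well. Among the rises were Cdkn2a as given above, the CDK inhibitor Cdkn1a at 19.2, 18.04 and 17.5 CPM against 12.8, 14.9 and 14.9 (0.36) and the pocket protein gene Rb1 at 13.2, 13.7 and 14.7 against 10.2, 9.25 and 9.54 (0.52). Cdkn2b, beside Cdkn2a in the genome, rose by 1.15 from below 1 CPM, a call lost without WT-Taf replicate 1 (0.89, adjusted p = 0.0543). Over the list of 21 genes 6 rose and 9 fell (median -0.07). Mitotic kinases and kinesins split evenly, with 7 rises and 8 falls among 26 (median -0.03), Cenpf higher (0.34) and Ccna2 lower (-0.25).

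Genes of the p53 pathway, which answers DNA damage and oncogenic stress, had 15 rises and 3 falls among 23 (median 0.27). That count was 14 and 3 among 20 off chromosomes 11, X and Y. Mdm2, the ubiquitin ligase that limits p53, stood at 103, 106 and 106 CPM against 76.8, 79.5 and 82.4 (0.40 ± 0.035), and Trp53inp1 (0.39), Phlda3 (0.50), Btg2 (0.65) and Pmaip1 (0.84) rose with Perp. Trp53 itself, on chromosome 11, stood at 379, 393 and 381 CPM against 377, 371 and 382 (0.03, adjusted p = 0.449). On the chromosome's own scale it was -0.13 (adjusted p = 0.00288), and with library totals 0.10 (adjusted p = 0.0387), so the direction of this gene depended on the scale. Among 25 apoptosis regulators 8 rose and 2 fell (median 0.11), with the BH3-only activator Bcl2l11 (0.72) and the apoptosome scaffold Apaf1 (0.47) higher.

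Genes of amino acid supply leaned lower. Of 22 amino acid transporters and tRNA synthetases 18 fell and 1 rose (median -0.21), and with library totals 13 fell and 1 rose. Wars, the tryptophanyl-tRNA synthetase, stood at 59.0, 66.3 and 60.9 CPM against 94.8, 98.3 and 97.3 (-0.64 ± 0.044), the glutamine carriers Slc1a5 and Slc38a1 changed by -0.54 and -0.50, the arginine and lysine carrier Slc7a3, which is X-linked, by -0.54, and the leucine carrier Slc7a5 by -0.29. Serine and one-carbon synthesis had 8 falls and 2 rises among 13 (median -0.16), or 6 and 2 with library totals. Its falls included the first serine enzyme Phgdh (-0.30) and mitochondrial Shmt2 (-0.33). Eif4ebp1, a repressor of cap-dependent translation, fell from 172 to 182 CPM down to 129 to 135 (-0.44).

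Antioxidant genes were lower as well, with 12 of 22 lower and 2 higher (median -0.12), a count that with library totals was 7 and 2. Nfe2l2, the NRF2 transcription factor that drives many of them, stood at 59.6, 61.2 and 60.5 CPM against 88.2, 86.3 and 87.3 (-0.53 ± 0.033). Sulfiredoxin, Srxn1 (-0.58), mitochondrial Sod2 (-0.33) and the X-linked NADPH source G6pdx (-0.62) fell. Fatty acid synthesis had 6 rises among 15 (median 0.09), with the desaturase Scd2 at 228, 225 and 232 CPM against 175, 167 and 172 (0.41) and the X-linked Acsl4 (0.33). Cholesterol synthesis was near the background at 4 rises and 3 falls among 22, but at 10 and 2 with library totals.

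Chaperones differed by compartment. Among 20 heat shock chaperones 3 rose and 9 fell (median -0.11; 6 and 7 with totals), with Hsp90aa1 from 4474 to 4662 CPM down to 3775 to 3872 (-0.26), Hspa1a lower (-0.55) and Hspa8 higher (0.25). Among 20 endoplasmic reticulum chaperones 9 rose and 2 fell (median 0.09). Hspa5, or BiP, stood at 761, 776 and 767 CPM against 663, 652 and 653 (0.23), and the disulfide isomerase Pdia6 rose (0.31). The falls there were Hsp90b1, or GRP94 (-0.43), and Sel1l, an adaptor of protein degradation (-0.41).

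DNA methylation genes split by role. Of 12 tested 3 rose and 7 fell (median -0.16). The rises were the de novo enzymes and their cofactor, Dnmt3l at 212, 224 and 219 CPM against 141, 149 and 148 (0.58 ± 0.034), Dnmt3a (0.33) and Dnmt3b. The maintenance pair Uhrf1 (-0.37) and Dnmt1 (-0.18), the demethylases Tet1 (-0.22) and Tet2 (-0.35) and the imprint protector Zfp57 (-0.36) fell. Polycomb genes had 8 rises and 12 falls among 30 (median -0.03), but 10 rises and 7 falls with library totals (median 0.04). Which direction prevailed in that list thus depended on the scale. Core PRC2 subunits Ezh2 (-0.23) and Eed (-0.20) fell, as did the PRC1 subunits Cbx7 (-0.40) and Pcgf2 (-0.44), the last on chromosome 11. Suz12, the third PRC2 core subunit and also on chromosome 11, rose by 0.11 (adjusted p = 0.0183), but was at -0.05 on that chromosome's own scale (adjusted p = 0.239). Suz12 also missed the threshold when Taf6l-KO replicate 3 (0.09, 0.0893) or WT-Taf replicate 1 (0.09, 0.0891) was left out.

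Imprinted genes were mixed, with 8 rises and 9 falls among 30 (median -0.06). H19, the maternally expressed long non-coding RNA, stood at 7.97, 8.77 and 8.82 CPM against 0.377, 0.547 and 0.609 (4.06 ± 0.180). It exceeds Nrp2 in fold, but with a mean of 92.5 counts it lay under the minimum of 100 for the ranking above. In Taf5l-KO H19 was at 0.0594, 0.102 and 0.157 CPM, so the Taf6l-KO libraries stood apart from both other groups. The paternally expressed Peg10 (-0.89) and Mest (-0.71) fell beside Grb10. Germline genes had 2 rises and 8 falls among 16 (median -0.31). Sohlh2 (-0.98), Dazl (-0.98) and the X-linked Tex11 (-1.15) were lower, and the rises were Tdrd12 (0.71) and Tex19.1 on chromosome 11 (0.76, and 0.60 on its own scale).

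**Figure D5:**
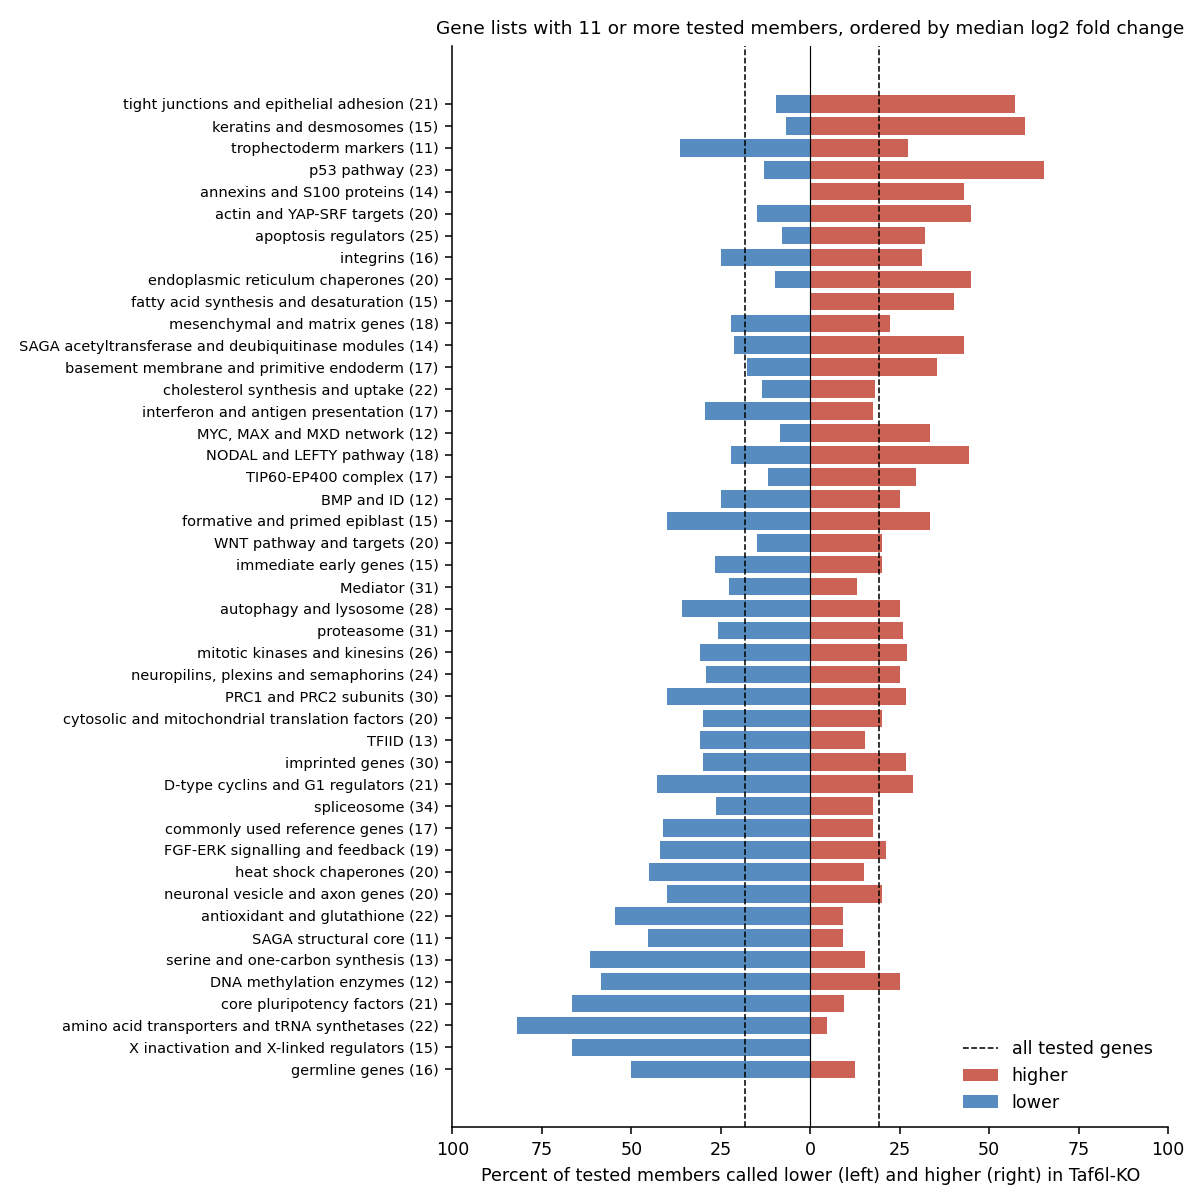
Percent of tested members called lower (blue, left) and higher (red, right) in Taf6l-KO for each gene list with at least 11 tested members (number in brackets), ordered by median log2 fold change, with dashed lines at the 18.2% and 19.1% of all tested genes. Junction, keratin and p53 lists extend farthest right, and the amino acid, pluripotency and X-linked lists farthest left.

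In large complexes many of the counted rises lay on chromosome 11. Mediator, the bridge between activators and polymerase, had 4 rises and 7 falls among 31 (median -0.01). The 4 rises, Med11 (0.41), Med13 (0.36), Med1 (0.27) and Med24 (0.19), are all on chromosome 11, which holds 7 of the members, and of the 22 members off chromosomes 11, X and Y 6 fell. On the chromosome's own scale Med24 was at 0.03 (adjusted p = 0.658). Of the proteasome's 8 rises among 31 members 5 were among its 6 members on chromosome 11, including Psmd3 (0.23) and Psmd12 (0.21), which were at 0.07 (adjusted p = 0.0777) and 0.05 (adjusted p = 0.241) on the own scale. Its 8 falls, led by Psmc1 (-0.41) and Psmd7 (-0.31), were on other chromosomes. In the spliceosome list 6 of 34 rose and 9 fell (median -0.07), with 3 of the rises among 5 members on chromosome 11. Scaling by totals left 2 falls and gave 6 rises in Mediator, 3 and 11 in the proteasome, and 3 and 8 in the spliceosome list.

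Genes often used as references showed the size of such shifts. Actb stood at 3126 to 3169 CPM against 3160 to 3204 (-0.01, adjusted p = 0.739), or 0.06 with library totals. Gapdh stood at 1365, 1365 and 1319 against 1411, 1497 and 1492 (-0.12, adjusted p = 0.0213), which missed the threshold under scaling by totals (-0.05, adjusted p = 0.383) and on leaving out Taf6l-KO replicate 3 (-0.10, 0.0885), WT-Taf replicate 2 (-0.11, 0.0867) or WT-Taf replicate 3 (-0.11, 0.0794). Ppia, on chromosome 11, rose (0.33), a call lost on that chromosome's own scale (0.18, adjusted p = 0.0934), the X-linked Pgk1 fell (-0.49), and Eef1a1 rose (0.14). Of 17 such genes 3 rose and 7 fell.

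Some chromosome 11 genes changed well beyond its general rise. Among genes averaging 100 counts or more, the largest rises after Calcoco2 were Hormad2, a meiotic chromosome-axis gene (1.35), Slit3, a guidance ligand (1.19), Urgcp (1.17), the aromatic amino acid decarboxylase Ddc, a neighbour of Grb10 (1.16), the heparan sulfotransferase Hs3st3b1 (1.05), Rdm1 (1.05) and the metalloprotease Adam19 (0.98). Ddc stood at 35.7, 33.9 and 34.6 CPM against 17.5, 14.4 and 14.7, and Rdm1 at 61.3, 60.1 and 68.1 against 30.7, 31.6 and 29.2. On the chromosome's own scale these 7 kept values from 0.82 to 1.19. After Grb10 the largest falls among such genes were Hist3h2ba (-1.04), the calcium pump Atp2a3 (-0.76), Bahcc1 (-0.70) and Cisd3 (-0.66), which lay between -0.82 and -1.19 on the own scale.

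The direct contrast with Taf5l-KO, which leaves the wild type out of the difference, asks where the Taf6l-KO cells departed from the Taf5l-KO cells. Of 15743 genes 1346 (8.55%) were higher and 1592 (10.1%) lower in Taf6l-KO, 2938 (18.7%) in all, and 117 differed at least 2-fold. Scaling by library totals gave 3663 genes in all, and leaving chromosome 11 out gave 2115. Chromosome 11 supplied 541 of the higher and 19 of the lower genes, with a median difference of 0.21 against -0.01 on other chromosomes. The rise of chromosome 11 is thus seen against Taf5l-KO as well.

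Each knockout had the lower RNA of its own target. Taf6l was at 18.6, 21.6 and 21.3 CPM in Taf5l-KO (difference -1.65 ± 0.082), and Taf5l at 43.0, 42.9 and 41.7 (difference 1.08 ± 0.036). Smoc1, a matricellular BMP modulator, stood at 19.96, 18.8 and 19.6 CPM in Taf6l-KO against 8.07, 7.34 and 7.36 in Taf5l-KO (1.36 ± 0.075), and Arhgap30, a GTPase-activating protein, at 23.0, 23.3 and 23.7 against 8.73, 9.68 and 9.29 (1.34 ± 0.067). Under the filters of the ranking above, Mc1r (1.45), Prr15 (1.27) and Klhl31 (1.26) completed the 5 largest differences, with wide spread within groups, and the last 2 calls were lost in DESeq2 (adjusted p = 0.0932 and 0.0695).

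Under those filters the largest differences in the other direction, after Taf6l, were in histone genes of the replication-dependent type and in Cdh4, R-cadherin (-0.86). Hist1h4n stood at 103, 91.7 and 74.3 CPM against 184, 217 and 154 (-1.04), Hist1h2bq at 27.0, 25.3 and 20.4 against 47.8, 58.6 and 37.8 (-0.99) and Hist2h3c1 at 11.98, 8.50 and 11.99 against 22.8, 22.6 and 15.8 (-0.90). Replication-dependent genes that encode the same histone type are highly similar, so the division of reads among such genes is uncertain. Of the lists, amino acid transporters and tRNA synthetases were lower in Taf6l-KO than in Taf5l-KO in 15 of 22, and p53 pathway genes were higher in 12 of 23. Over all tested genes 10.1% were lower and 8.55% higher in this contrast, and these list counts were made with TMM only. Perp, for example, stood at 14.2, 13.4 and 14.0 CPM in Taf5l-KO, 0.79 below its level in Taf6l-KO.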

How the data were processed

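RNA-seq of ribosomal RNA-depleted total RNA with a directional kit, per the labels' protocols, gave 15 libraries, of which 9 were used here. For each gene the authors deposited an estimated count, a whole number, and an FPKM value. Salmon 0.8.2, DESeq2 1.14.1 and mm9 are named, without roles, in the submitters' processing notes; which gene models were used is not given here. Samples were grouped by title. edgeR 4.0.16 in R 4.3.3 (TMM, filterByExpr, glmQLFit, glmQLFTest) tested the estimated counts of the 9 libraries of the Taf experiment, at a Benjamini-Hochberg adjusted p of 0.05. CPM are TMM-normalised, and the SE is the log2 fold change over the square root of F. Chromosomes came from GENCODE M21 (GRCm38) by gene ID for 32620 of 37310 genes (87.4%). Coordinates are printed for RefSeq promoters only. The chi-square of replicate counts per degree of freedom was 2.68 to 6.92, above sampling noise.

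The 52 gene lists (1014 of 1023 entries matched), the tests and the members were chosen with earlier results of these data known. Named genes were the targets and Myc, the 15 largest rises and falls among called genes that averaged 100 counts or more and whose groups did not overlap, without clone-like names, the 8 largest rises and 5 falls on chromosome 11, the 5 largest differences each way from Taf5l-KO, the 4 list members with the smallest p, and other members of lists described. Added after seeing the data were protein-coding genes only, chromosome 11 on its own scale, and lists off chromosomes 11, X and Y. Shares of counts other than those of chromosomes 11, X and Y, histone genes and mitochondrial genes were not planned. limma 3.58.1 tested log2(FPKM + 1) and log2(FPKM + 0.1) of genes averaging at least 0.5 FPKM. On simulated counts over 15279 genes for this comparison, edgeR recovered 59.7% of 67 genes changed 1.5-fold. It recovered 71% of 69 genes changed 2-fold and 92.2% of 64 changed 4-fold, and 11 of its 159 calls were unchanged genes. Every other gene was left unchanged there and no chromosome was shifted, unlike in the data. These rates therefore need not hold for the real comparison. Figures were drawn with Python 3.11.15.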

Additional observations from a re-analysis of the deposited data

How the results depend on the processing

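Of 241 results for named genes, 151 kept their direction and side of the threshold in every alternative tried. Scaling by totals gave 1837 lower genes, 53 of them on chromosome 11. DESeq2 1.42.0 called 1832 higher genes and, against Taf5l-KO, 1831 genes in place of 2938; with all 15 libraries that contrast gave 1647. A minimum fold of 1.2 left 911 higher and 764 lower genes, with 126 and 26 on chromosome 11, and 178 against Taf5l-KO. log2(FPKM + 1) gave 1375 higher genes, 1743 lower and 234 changed at least 2-fold, with 268 and 44 on chromosome 11, and 926 against Taf5l-KO. log2(FPKM + 0.1) gave 1383 higher and 1741 lower, with 270 and 42 on chromosome 11, and 923 against Taf5l-KO. A mean of at least 100 counts left 116 genes changed at least 2-fold. Chromosome 11 on its own scale, chosen after seeing the data, had 206 higher and 232 lower genes and a median of 0.0061. The chromosome 11 median was 0.163 in the fit as designed, 0.149 in DESeq2, 0.153 with RLE and with all 15 libraries, 0.172 with TMM off chromosome 11, 0.232 with totals, 0.137 and 0.152 on log2(FPKM + 1) and log2(FPKM + 0.1), 0.155 at 100 counts, 0.157 unfiltered, 0.150 with only the 2 groups and 0.162 for protein-coding genes (chosen after seeing the data). Leaving out 1 library gave 2475 to 2582 higher, 2397 to 2554 lower, 492 to 519 genes changed at least 2-fold, 429 to 452 and 71 to 79 on chromosome 11, a chromosome 11 median of 0.161 to 0.167, 2022 to 2785 genes against Taf5l-KO, and Taf6l at -2.05 to -1.94. Actb (0.055) and Kat2a (0.057) changed sign under totals, Suz12 (-0.052), Jup (-0.022) and Trp53 (-0.127) on the chromosome's own scale, and Kat2a ran from -0.041 to 0.0099 on leaving out 1 library. The cause was not tested. Same-numbered libraries did not deviate together (r from -0.039 to -0.023), and each knockout library correlated lowest with the wild-type library of its own number. Deviations from a group's mean constrain each other, so these values gave no sign of pairing by number but cannot exclude it. A replicate block gave 2937 higher and 2820 lower genes, 506 changed at least 2-fold, 501 and 84 on chromosome 11, and 2852 against Taf5l-KO. With 3 libraries a group, genes with few counts, such as Gata6, Dppa3 and Cdkn2b, have wide errors.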
